A study of Mus musculus with 6 samples.

Results

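Myokines are proteins that muscle secretes into its own tissue or into the blood. A set of 10 genes for secreted myokines was followed in gastrocnemius/plantaris (GP) muscle, chosen by gene symbol: Fgf21, Gdf15, Fndc5, Metrnl, Ostn, Apln, Vegfa, Bdnf, Angptl4 and Sparc. All 10 were found among the 24421 genes listed in the count tables, and 9 of them, all but Fgf21, passed the expression filter that left 14180 genes to test. Bulk RNA-Seq was available for 6 male mice at 5 months of age, labeled as of B6C3F1 background although the founders of the floxed line were bred to C57BL/6N mice, and 3 months after tamoxifen, which both groups received. By the labels, the 3 Ctrl mice carried floxed Net39 alleles (Net39 fl/fl) and no Cre, and the 3 cKO mice also carried HSACreERT2. HSACreERT2 is a tamoxifen-inducible Cre driven by the human skeletal actin promoter, which acts in muscle fibers and not in satellite cells or the other cells of the tissue.

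The targeted gene went against the labels. Net39, a muscle protein of the nuclear envelope listed under its older symbol Ppapdc3, had 310, 321 and 217 counts in the Ctrl-labeled libraries and 5365, 4340 and 6080 in the cKO-labeled libraries (log2 fold change 4.22 ± 0.17 SE, adjusted p = 0.000161). The gene was therefore low in each library labeled Ctrl and high in each library labeled cKO. Every direction in the text follows the labels, and fold changes are cKO-labeled over Ctrl-labeled. Whether the labels of the groups were exchanged cannot be told from the counts alone, and if they were, every direction by genotype would turn. Adjusted p-values are from edgeR's quasi-likelihood test with Benjamini-Hochberg adjustment over all genes tested, and a gene is called at an adjusted p under 0.05 with a fold change over 2. Levels are CPM, read counts scaled to a common library size with edgeR's TMM factors. Total counts were 33860001 to 38201728 in the Ctrl-labeled and 39191239 to 48839910 in the cKO-labeled libraries, which did not overlap. TMM factors were 1.08 to 1.11 and 0.865 to 0.983, respectively. Fast type IIb fiber genes, which mark this mostly fast muscle, summed to 65599 to 107650 CPM in the Ctrl-labeled and 167033 to 214363 CPM in the cKO-labeled libraries, and 8 of 15 were called higher in the latter (log2 fold changes 1.02 to 2.02), with Mylk2, Gpd1, Atp2a1 and Mybpc2 at the smallest p. Without 1 library, 3 to 10 of them were called, with 3 without cKO-labeled replicate 3, 4 without cKO-labeled replicate 1 and 5 without Ctrl-labeled replicate 2.

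Exercise, nutrient state and cell stress are known to change which myokines muscle releases. Fgf21 and Gdf15 are transcribed when the integrated stress response raises ATF4, and PPAR factors can induce Fgf21 and Angptl4. Vegfa is a classical target of hypoxia-inducible factors. Each myokine acts through its own receptor, often on another organ such as liver, fat or brain.

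The promoters of Fgf21 and Gdf15, the stress-induced ligands of the set, and of Metrnl, whose call held under every alternative tried, are shown as the 250 bases before an annotated RefSeq start (GRCm38.p6), read 5′ to 3′ on the strand of the gene. RefSeq promoters were matched for 8 of the 10 members, with 16 starts in all. Ostn and Angptl4 were not matched. Capitals mark matches, on either strand, to TGATGNAA (a composite site of ATF and C/EBP factors), TGACGTCA (a full cyclic AMP response element) or ACGTG (the core of the hypoxia response element). The Fgf21 window lies at chr7:45615491-45615740 (minus strand), that of Gdf15 at chr8:70632457-70632706 (minus strand) and that of Metrnl at chr11:121702177-121702426 (plus strand), where 16 bases are exonic in another Metrnl transcript.
Fgf21: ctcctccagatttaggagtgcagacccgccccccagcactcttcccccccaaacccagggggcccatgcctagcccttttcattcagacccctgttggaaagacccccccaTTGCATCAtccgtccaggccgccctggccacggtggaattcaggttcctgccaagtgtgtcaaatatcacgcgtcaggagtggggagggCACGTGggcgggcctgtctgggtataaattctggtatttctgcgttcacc
Gdf15: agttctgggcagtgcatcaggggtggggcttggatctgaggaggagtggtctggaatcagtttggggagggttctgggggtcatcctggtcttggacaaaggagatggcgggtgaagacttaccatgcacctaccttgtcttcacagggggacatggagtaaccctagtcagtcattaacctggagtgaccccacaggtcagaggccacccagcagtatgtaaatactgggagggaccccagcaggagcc
Metrnl: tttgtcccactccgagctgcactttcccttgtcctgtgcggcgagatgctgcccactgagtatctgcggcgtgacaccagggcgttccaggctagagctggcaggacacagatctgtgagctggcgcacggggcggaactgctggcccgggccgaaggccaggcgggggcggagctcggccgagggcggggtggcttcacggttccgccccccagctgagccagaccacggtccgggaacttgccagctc
The Fgf21 window held TGATGNAA on the opposite strand, 132 bases from the start, and overlapping ACGTG matches on both strands within CACGTG. The Gdf15 and Metrnl windows shown held none of the motifs. A further Gdf15 start, whose window is not shown since 196 of its bases are exonic, held ACGTG on both strands, 79 bases from that start. Of the 16 windows of members, TGATGNAA was in 1, TGACGTCA in 0 and ACGTG in 6, those of Fgf21, Fndc5, the further Gdf15 start, 1 of Vegfa and 2 of Bdnf. The Vegfa match was in the window of its start 2, where 218 bases are exonic, and the window of its start 1 held none. Among 32851 RefSeq windows of the same length, 3.45% held TGATGNAA, 1.55% held TGACGTCA and 16.6% held ACGTG. A match is a stretch of letters and was not measured as a bound site.

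Metrnl and Bdnf were the members called, both higher in the Ctrl-labeled libraries. These were 2 of 9 members, beside 6.05% of all genes tested that were called, 3.92% higher in the Ctrl-labeled and 2.13% higher in the cKO-labeled libraries. No member was called higher in the cKO-labeled libraries by edgeR or DESeq2, and 1, Vegfa, had an unadjusted p under 0.05 in that direction. At an adjusted p under 0.05 with any fold, the same 2 members passed, beside 24.4% of all genes, 11.8% higher in the Ctrl-labeled and 12.6% higher in the cKO-labeled libraries. That background of 3454 genes was 1560 without cKO-labeled replicate 3, 1575 without Ctrl-labeled replicate 1, 1789 without cKO-labeled replicate 1 and 1820 without Ctrl-labeled replicate 2. Scaled to total counts in place of TMM, the calls over all genes changed from 556 and 302 to 1023 higher in the Ctrl-labeled and 157 higher in the cKO-labeled libraries. CPM did not overlap between the labeled groups for Metrnl, Bdnf and Vegfa, 3 of the 9 members tested, against 43.9% of all genes tested. The median log2 fold change of the members was -0.45, with 8 below 0 and 1 above, and that of all genes tested was -0.015.

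Metrnl (meteorin-like) encodes a secreted protein that acts on fat, immune and muscle progenitor cells. It had 19.4, 18.0 and 15.3 CPM in the Ctrl-labeled libraries and 4.6, 6.91 and 3.98 CPM in the cKO-labeled libraries. The lowest Ctrl-labeled library thus stood above the highest cKO-labeled one. The mean was 17.6 ± 2.09 CPM against 5.16 ± 1.54 CPM (SD, n = 3 each), a log2 fold change of -1.77 ± 0.21 SE (adjusted p = 0.00334). The exact two-sided permutation test gave p = 0.1, the smallest that 3 against 3 allows. The call held without each library in turn, with log2 fold changes of -2.05 to -1.62. In whole muscle, fewer cells that express a gene and less RNA per cell cannot be told apart.

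Markers of other cells moved with Metrnl. Of 15 macrophage markers tested, 10 passed at an adjusted p under 0.05 with any fold, all higher in the Ctrl-labeled libraries, with a list median of -0.84. Lyz2 (lysozyme) and Cd68 were called, at log2 fold changes of -1.07 and -1.12, but Cd68 missed the threshold in 4 of 6 fits without 1 library. In those fits 0 to 6 of the markers were called (0 without cKO-labeled replicate 1, 1 without Ctrl-labeled replicate 2 and 6 without cKO-labeled replicate 2) and 5 to 12 passed (5 without Ctrl-labeled replicate 2 or cKO-labeled replicate 3), and scaled to total counts 10 were called. The markers summed to 267 to 280 CPM in the Ctrl-labeled libraries and to 129 to 163 CPM in the cKO-labeled ones, and no marker was at 0. The slow-fiber list had 8 of 16 genes called higher in the Ctrl-labeled libraries (median -2.09) and summed to 14149 to 23404 CPM against 3329 to 8199 CPM, with Csrp3, Hspb7, Myoz2 and Casq2 at the smallest p (log2 fold changes -2.62 to -1.55). Slow-fiber calls numbered 3 without Ctrl-labeled replicate 1, 4 without Ctrl-labeled replicate 2, 5 without cKO-labeled replicate 1 and 7 to 12 without another library. Among the cKO-labeled libraries, replicate 2 was highest for Metrnl, for the macrophage sum and for the slow-fiber sum. Among the Ctrl-labeled libraries, replicate 1 was highest for Metrnl and for the slow-fiber sum but lowest for the macrophage sum, which was 267, 269 and 280 CPM in replicates 1, 2 and 3. The part of these markers in the Metrnl difference was not tested.

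Bdnf, brain-derived neurotrophic factor, signals through TrkB and is made by contracting muscle as well as by neurons. It was low, with 161, 69 and 61 counts in the Ctrl-labeled libraries and 24, 39 and 20 in the cKO-labeled libraries. These were 4.11, 1.67 and 1.67 CPM against 0.677, 1.01 and 0.454 CPM. No values overlapped, but Ctrl-labeled replicate 1 stood well above the others of its group. The log2 fold change was -1.80 ± 0.46 SE (adjusted p = 0.0312, exact permutation p = 0.1). Without Ctrl-labeled replicate 1 it was -1.22 (adjusted p = 0.0787), and the call was also lost without cKO-labeled replicate 1 (adjusted p = 0.0973) or replicate 3 (adjusted p = 0.102). Bdnf shares 896 exonic bases with the antisense gene Gm45346, and the strand setting of the counting is not given in the sources used here, so that reads of the pair cannot be told apart.

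**Figure D1:**
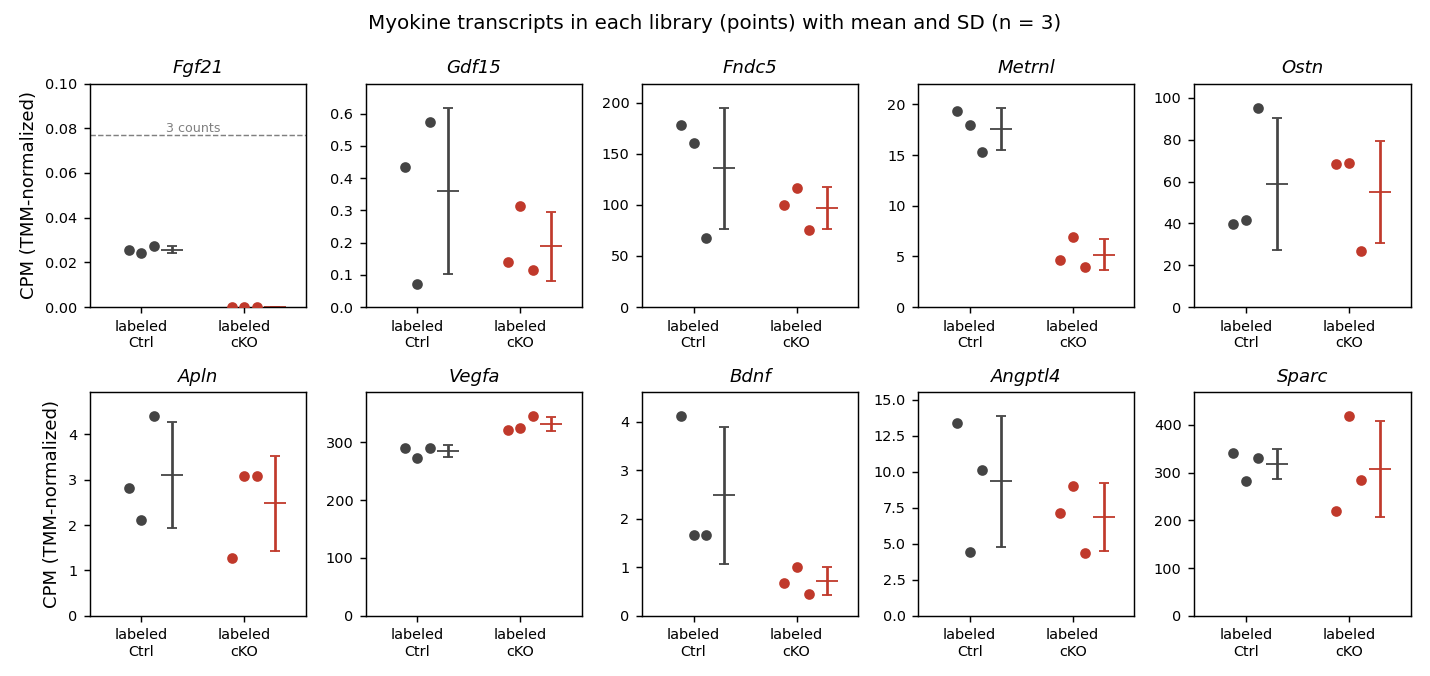
CPM of the 10 myokine genes in each library (points, 3 per labeled group), with the group mean and SD, on linear axes that differ between panels. Metrnl and Bdnf are higher in every Ctrl-labeled library and Vegfa in every cKO-labeled one, while the Fgf21 panel spans values of 0 or 1 count, under the dashed line at 3 counts.

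Fgf21 is a hormone of the FGF family that liver and stressed muscle release. It had 1 count in each Ctrl-labeled library and 0 in each cKO-labeled library. All 6 values lie under the floor of 3 counts per library, which corresponds to 0.0682 to 0.0847 CPM, so a difference was not detectable at this depth and no fold is given. Fgf21 thus had no level that could be compared under either label.

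Gdf15, a stress-induced member of the TGF-β superfamily that lowers appetite, was close to the floor as well. It had 17, 3 and 21 counts in the Ctrl-labeled libraries and 5, 12 and 5 in the cKO-labeled libraries. The groups overlapped, and the lowest value of all was a Ctrl-labeled one. The log2 fold change was -0.91 ± 0.72 SE (adjusted p = 0.389), and without 1 library it ranged from -1.48 to -0.41. The SE is close in size to the difference itself.

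Fndc5 encodes the membrane precursor of irisin. It had 178, 161 and 67.8 CPM in the Ctrl-labeled libraries and 99.5, 116 and 75.5 CPM in the cKO-labeled libraries. Ctrl-labeled replicate 3 was the lowest of all 6, and the other Ctrl-labeled libraries were the highest. The log2 fold change was -0.48 ± 0.34 SE (adjusted p = 0.333). Without Ctrl-labeled replicate 3 it was -0.80 with an adjusted p of 0.0247, so that this single mouse decided whether Fndc5 passed.

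Ostn encodes osteocrin, also called musclin, a peptide that binds the natriuretic peptide clearance receptor. Its CPM was 39.5, 41.8 and 95.4 in the Ctrl-labeled libraries and 68.6, 69.1 and 26.6 in the cKO-labeled libraries. In each group, 1 library stood apart, the highest of all 6 among the Ctrl-labeled and the lowest of all 6 among the cKO-labeled. Ostn had a log2 fold change of -0.11 ± 0.45 SE (adjusted p = 0.886). It was 0.43 without Ctrl-labeled replicate 3 and 0.22 without cKO-labeled replicate 3, so that its sign rested on a single library in either group. Ostn shares 184 exonic bases with the antisense gene Gm32312.

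Apln encodes apelin, a peptide that acts on vessels, heart and muscle. It had 2.81, 2.12 and 4.40 CPM in the Ctrl-labeled libraries against 1.27, 3.09 and 3.09 CPM in the cKO-labeled ones. The groups overlapped, with the lowest value in cKO-labeled replicate 1. Between the groups, Apln had a log2 fold change of -0.32 ± 0.39 SE (adjusted p = 0.591), and it was 0.02 without Ctrl-labeled replicate 3.

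Vegfa, the main growth factor of blood vessels, was the tested member with the least spread between mice (CV 3.49% and 3.7%). It had 290, 273 and 291 CPM in the Ctrl-labeled libraries and 322, 325 and 345 CPM in the cKO-labeled libraries. The cKO-labeled values were all higher, by a margin that was small beside the level. The mean was 285 ± 9.95 CPM against 331 ± 12.2 CPM (SD, n = 3 each), a log2 fold change of 0.22 ± 0.08 SE (adjusted p = 0.0875, exact permutation p = 0.1). DESeq2 gave an adjusted p of 0.0293 for this gene. Scaling to total counts moved the median of all genes from -0.015 to -0.269 and Vegfa to -0.04, which turned its sign, while relative to the median of all genes it was 0.23 under both scalings.

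Angptl4 encodes a secreted inhibitor of lipoprotein lipase. It had 13.4, 4.46 and 10.1 CPM in the Ctrl-labeled libraries and 7.14, 9.04 and 4.39 CPM in the cKO-labeled libraries. Ctrl-labeled replicate 2 was nearly as low as the lowest cKO-labeled library, and the groups overlapped. The log2 fold change was -0.45 ± 0.41 SE (adjusted p = 0.462), and without 1 library it ranged from -0.78 to -0.09.

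Sparc encodes a collagen-binding matrix protein that muscle and connective tissue cells secrete. It had 341, 282 and 331 CPM in the Ctrl-labeled libraries and 220, 418 and 284 CPM in the cKO-labeled libraries. The cKO-labeled libraries held both the lowest and the highest value. The log2 fold change was -0.05 ± 0.22 SE (adjusted p = 0.892), and it was 0.13 without cKO-labeled replicate 1 and 0.01 without Ctrl-labeled replicate 1. Markers of fibro-adipogenic progenitors, connective tissue cells that express Sparc, summed to 2164, 3097 and 2577 CPM in cKO-labeled replicates 1, 2 and 3, the same order as Sparc, and to 3137, 3154 and 3205 CPM in the Ctrl-labeled libraries, an order that Sparc did not share. Without Gsn, the gene of highest level on the list, the sums were 1124, 2061 and 1468 CPM against 1720 to 1978 CPM. Of these 16 markers (median -0.65), 9 passed, all higher in the Ctrl-labeled libraries, 4 of them called (Mfap5, Postn, Ly6a and Col3a1, at -2.39 to -1.06), and none was at 0. Col3a1 missed the threshold in 4 of 6 fits without 1 library, with adjusted p up to 0.0896, and scaled to total counts 7 were called. Their part in the Sparc values was not tested.

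**Figure D2:**
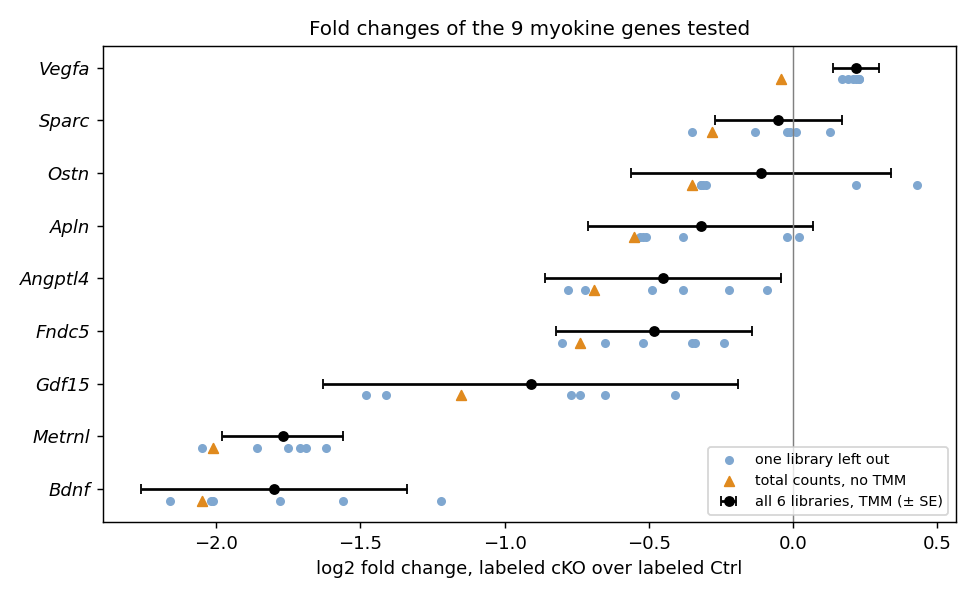
Log2 fold change (cKO-labeled over Ctrl-labeled) of the 9 members tested, from all 6 libraries (black points, ± SE), without each library in turn (blue points) and scaled to total counts (orange triangles). Metrnl and Bdnf lie below -1 in every fit shown, Gdf15 has the largest SE, 0.72, and points of Ostn, Apln, Sparc and Vegfa fall on both sides of 0.

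Per kilobase of exon, the set spanned a wide range of levels. Sparc was highest in the Ctrl-labeled libraries at 83.9 ± 8.42 CPM per kilobase (SD, n = 3), followed by Vegfa at 66.5 ± 2.32, Fndc5 at 49.1 ± 21.4 and Ostn at 41.4 ± 22.2. Vegfa and Fndc5 overlapped in range there, as did Fndc5 and Ostn. Metrnl stood apart from its neighbors at 11.1 ± 1.32 CPM per kilobase. Below it came Angptl4 at 2.63 ± 1.28 and Apln at 0.988 ± 0.371, which overlapped, then Bdnf at 0.399 ± 0.227 and Gdf15 at 0.195 ± 0.14, which also overlapped. In the cKO-labeled libraries the order differed by 1 exchange, with Ostn (38.5 ± 17.1 CPM per kilobase) ahead of Fndc5 (35.1 ± 7.33), and these ranges overlapped. Metrnl was still in the middle of the order at 3.25 ± 0.974 CPM per kilobase, but there its range met that of Angptl4 (1.94 ± 0.66).

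Receptors of the myokines were looked at in the muscle itself, where Gfral and Klb did not pass the expression filter. None of the 21 other receptors and binding partners tested was called by edgeR with TMM or by DESeq2, while 7 had an unadjusted p under 0.05 in edgeR. Scaled to total counts, 1 was called, Fgfr3 at -1.09 (adjusted p = 0.00268). The list median was -0.17. Beside 11.8% and 12.6% of all genes, 4 passed higher in the Ctrl-labeled and 1 in the cKO-labeled libraries at an adjusted p under 0.05 with any fold. Those counts were 2 to 5 and 0 to 1 without 1 library, the 2 being without Ctrl-labeled replicate 1, cKO-labeled replicate 1 or cKO-labeled replicate 3. Fgfr3, an FGF receptor, had 14.7, 12 and 11.8 CPM against 7.54, 6.88 and 7.25 CPM, with every Ctrl-labeled value above every cKO-labeled one (log2 fold change -0.83 ± 0.12 SE, adjusted p = 0.00498). Stab1, a scavenger receptor of macrophages and endothelium that binds SPARC, was at -0.43 ± 0.07 SE (adjusted p = 0.00787), beside the macrophage sums given above, whose part was not tested. Both passed without each library in turn.

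The integrin pair that binds irisin split, with Itgav at -0.37 ± 0.09 SE (adjusted p = 0.0249) and Itgb5 at 0.42 ± 0.12 SE (adjusted p = 0.0381). Fgfr1 was at -0.35 ± 0.10 SE (adjusted p = 0.0425). None of these passed in every fit without 1 library. Fgfr1 and Itgb5 each missed the threshold in 5 of 6 fits without 1 library, with adjusted p up to 0.131 and 0.12, and Itgav in 4, with adjusted p up to 0.0892. Itgb5 also missed it when scaled to total counts (log2 fold change 0.17, adjusted p = 0.392). Klb, the co-receptor that FGF21 needs, had 6 to 18 counts per library and was not tested. Gfral, the GDF15 receptor of the hindbrain, had 0 counts in all 6 libraries, each of which allows up to 3 counts. Ntrk2 (TrkB, the Bdnf receptor) was at 0.34 ± 0.22 SE, Aplnr (the apelin receptor) at 0.30 ± 0.35 and Npr3 (the clearance receptor) at -0.51 ± 0.33, with adjusted p of 0.284, 0.561 and 0.297. The VEGF receptors Kdr at -0.17 ± 0.21 SE and Flt1 at -0.35 ± 0.18 SE did not pass either (adjusted p = 0.585 and 0.194), although Kdr passed without cKO-labeled replicate 2, at -0.46, and Flt1 when scaled to total counts, at -0.62 (adjusted p = 0.0277). Lpl, the lipase that ANGPTL4 inhibits, was at -0.75 ± 0.26 SE (adjusted p = 0.0787). Lpl passed with total counts (-0.99, adjusted p = 0.0371), with DESeq2 and in 2 of 6 fits without 1 library, where it ranged from -1.0 to -0.50. The other 10 tested, Fgfr2, Fgfr4, Ret, Npr1, Npr2, Nrp1, Nrp2, Ngfr, Sort1 and Gpihbp1, did not pass in edgeR and lay between -0.35 for Ngfr and 0.65 for Sort1, which passed with DESeq2.

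**Figure D3:**
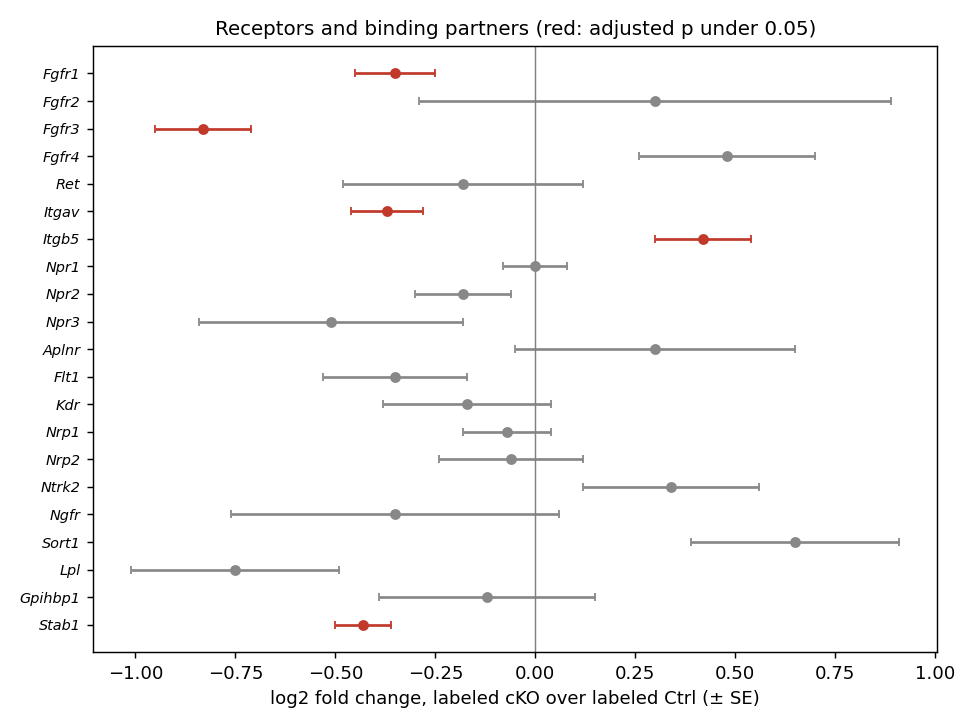
Log2 fold change (cKO-labeled over Ctrl-labeled, ± SE) of the 21 receptors and binding partners tested, with those at an adjusted p under 0.05 in red. Fgfr3 at -0.83, Stab1, Itgav and Fgfr1 lie below 0 and Itgb5 at 0.42 above it.

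Genes related to the members by sequence were counted next. Of all genes tested, 11.8% passed higher in the Ctrl-labeled and 12.6% higher in the cKO-labeled libraries, and 2.13% were called higher in the latter. Of 21 paralogs tested, 3 passed in each direction and 2 were called, both higher in the cKO-labeled libraries. Both counts depended on the scaling and on single mice. With total counts as the scale, 7 passed higher in the Ctrl-labeled and 3 in the cKO-labeled libraries, with 1 called in each direction. The counts passing were 1 and 1 without Ctrl-labeled replicate 1 or 2, 0 and 2 without cKO-labeled replicate 1 and 0 and 1 without cKO-labeled replicate 3. Ntf5, the neurotrophin-4 gene whose product shares TrkB with BDNF, had 3.65, 3.86 and 3.39 CPM against 7.54, 8.31 and 7.02 CPM. The cKO-labeled values were all above the Ctrl-labeled ones (log2 fold change 1.07 ± 0.12 SE, adjusted p = 0.00322). Ntf5 passed in every fit without 1 library, at 0.98 to 1.11, and was at 0.82 when scaled to total counts, under the 2-fold limit. Nppc, the C-type natriuretic peptide, was low at 6 to 10 counts against 16 to 29 (log2 fold change 1.63 ± 0.38 SE, adjusted p = 0.0216), and it missed the threshold in 4 of 6 fits without 1 library, with adjusted p up to 0.0833.

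Other secreted factors of muscle were counted as well, with a median log2 fold change of -0.26. Beside 3.92% and 2.13% of all genes, 9 of 31 tested were called higher in the Ctrl-labeled and 1 higher in the cKO-labeled libraries. The 9 became 5 without Ctrl-labeled replicate 1 or cKO-labeled replicate 1 and 6 to 9 without another library. Fgf1 and Cxcl10 missed the threshold in 4 of 6 such fits and Timp1 in 5, with adjusted p up to 0.079, 0.0735 and 0.147. Among the genes that passed in all of these fits were Ctgf and Cyr61, matricellular growth factor binders, at -1.59 ± 0.19 SE (adjusted p = 0.0034) and -1.31 ± 0.21 SE (adjusted p = 0.0068). Postn, a matrix protein of fibroblasts that is also on the progenitor list, was at -2.39 ± 0.33 SE (adjusted p = 0.00459), and the membrane-bound chemokine Cx3cl1 at -2.79 ± 0.44 SE (adjusted p = 0.00684). The gene called in the other direction was Mstn, myostatin, the inhibitor of muscle growth. It had 19.4, 28.3 and 44.1 CPM in the Ctrl-labeled libraries and 137, 97.5 and 120 CPM in the cKO-labeled libraries, with no overlap (log2 fold change 1.95 ± 0.29 SE, adjusted p = 0.0057). The fast-fiber, macrophage and progenitor sums given above also differed between the groups, and their part in these calls was not tested.

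The pathways that act upstream of the members were counted in the same way. Of 29 integrated stress response genes tested, none was called by edgeR with all 6 libraries and TMM or by DESeq2, and 12 had an unadjusted p under 0.05 in edgeR. Scaled to total counts 1 was called higher in the Ctrl-labeled libraries, and without cKO-labeled replicate 2, 1 was called higher in the cKO-labeled libraries. Beside 11.8% and 12.6% of all genes, 2 passed higher in the Ctrl-labeled and 4 in the cKO-labeled libraries at an adjusted p under 0.05 (median -0.20). These became 11 and 2 when scaled to total counts, 3 and 0 without Ctrl-labeled replicate 2, and 1 and 1 without Ctrl-labeled replicate 1, cKO-labeled replicate 1 or cKO-labeled replicate 3. Ddit3, the stress-induced factor CHOP, was at -0.61 ± 0.11 SE (adjusted p = 0.0118) and Hspa5, the chaperone BiP, at -0.65 ± 0.15 SE (adjusted p = 0.0213). Vldlr, a lipoprotein receptor, was at 0.86 (adjusted p = 0.0176) and missed the threshold in 2 of 6 fits without 1 library, with adjusted p up to 0.0679. Aldh1l2, a mitochondrial folate enzyme, was at 0.95 ± 0.24 SE (adjusted p = 0.0277), and it missed the threshold in 5 of 6 fits without 1 library, with adjusted p up to 0.0968. Hspa5 missed it in 3 such fits, with adjusted p up to 0.0734. Scaled to total counts, Cebpg and Eif2ak1, both among the 4, no longer passed (adjusted p = 0.485 and 0.72). Without 1 library, Eif2ak1 missed the threshold in 6 of 6 fits and Cebpg in 3, with adjusted p up to 0.106 and 0.0954. Atf4 mRNA itself had 175 to 197 CPM in the Ctrl-labeled and 188 to 218 CPM in the cKO-labeled libraries, which overlapped (log2 fold change 0.12 ± 0.09 SE, adjusted p = 0.355). The balance of directions in this list thus depended on the scaling and on single mice.

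Hypoxia response genes are the list that goes with Vegfa. Beside 3.92% and 2.13% of all genes called higher in the Ctrl-labeled and cKO-labeled libraries, they had 2 calls in each direction among 22 tested (median -0.03). With total counts, the calls were 3 higher in the Ctrl-labeled and 0 in the cKO-labeled libraries, and without 1 library they were 1 to 3 and 1 to 2. Egln3, an oxygen-sensing prolyl hydroxylase, was at -1.95 ± 0.35 SE (adjusted p = 0.00955) and Slc2a1, the glucose transporter GLUT1, at -1.0 ± 0.16 SE (adjusted p = 0.00722), at the limit of a 2-fold change. Ldha, lactate dehydrogenase A, was at 1.14 ± 0.19 SE (adjusted p = 0.00777) and Pfkfb4, a regulator of glycolysis, at 1.10 ± 0.30 SE (adjusted p = 0.0356), although scaled to total counts they were at 0.88 and 0.83, and Pfkfb4 missed the threshold in 5 of 6 fits without 1 library, with adjusted p up to 0.11. The fast-fiber sums given above moved in the direction of Ldha and Pfkfb4, and their part was not tested. The list median was 0.01 without Ctrl-labeled replicate 2.

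PPAR targets and coactivators, the list that goes with Fgf21 and Angptl4, had 3 of 26 called, beside 6.05% of all genes. The 3 became 0 without Ctrl-labeled replicate 1 and 1 without Ctrl-labeled replicate 2, cKO-labeled replicate 1 or cKO-labeled replicate 3. Ppara, the fatty acid-sensing receptor, was at -1.39 ± 0.32 SE (adjusted p = 0.0214) and Ucp2, a mitochondrial carrier, at -1.05 ± 0.14 SE (adjusted p = 0.00428). Ucp3, its muscle paralog, was at 1.24 ± 0.33 SE (adjusted p = 0.0342). Without 1 library, Ppara missed the threshold in 4 of 6 fits, with adjusted p up to 0.0752, and Ucp3 in 5, with adjusted p up to 0.105. Ucp2 passed in all 6, at -1.17 to -0.91, so that its change was not always over 2-fold, and Ucp3 was at 0.96 when scaled to total counts.

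**Figure D4:**
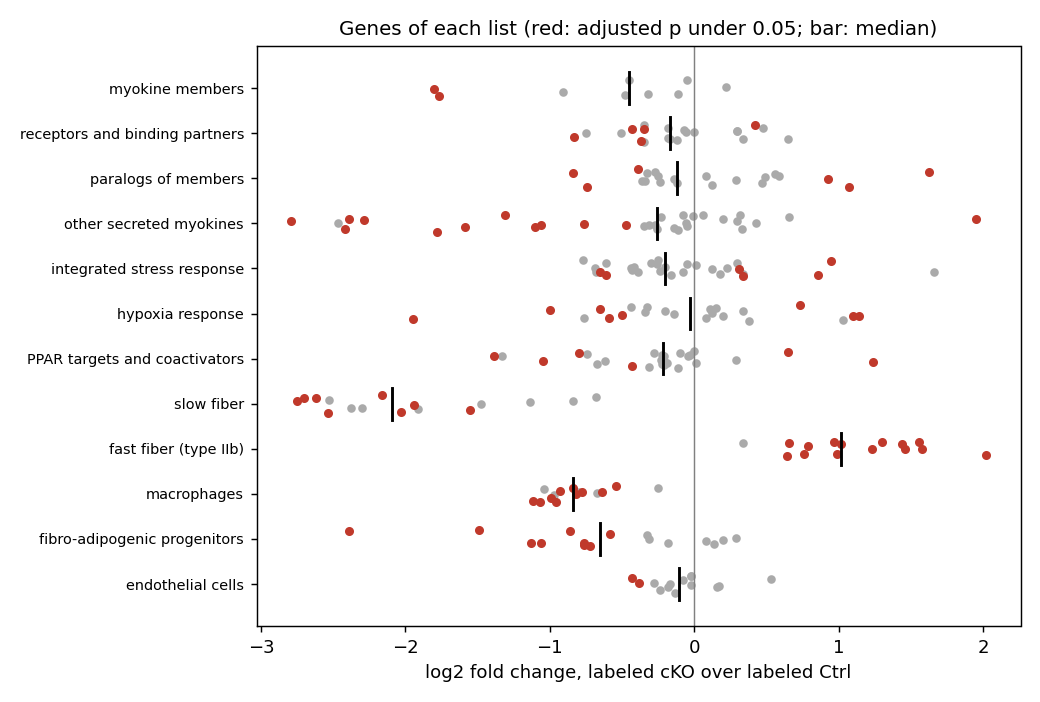
Log2 fold change (cKO-labeled over Ctrl-labeled) of each gene tested in 12 of the lists (points, red at an adjusted p under 0.05), with the median of each list as a black bar and 0 for no difference. The members have a median of -0.45 and 2 red points, while all slow-fiber genes lie below 0 (median -2.09) and all fast-fiber genes above it (median 1.02).

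Other cell types that secrete or answer myokines were counted through their markers. Of all genes tested, 11.8% passed higher in the Ctrl-labeled and 12.6% higher in the cKO-labeled libraries. Some sums are also given without the 1 or 2 genes of highest level, a choice made after the values were seen. Of 14 endothelial markers, which accompany Vegfa and Apln, 2 passed, both higher in the Ctrl-labeled libraries (median -0.10, summed level 621 to 690 against 577 to 592 CPM). That number was 6 when scaled to total counts, 3 without Ctrl-labeled replicate 3 and 1 without Ctrl-labeled replicate 1 or 2 or cKO-labeled replicate 1 or 3. None of 9 adipocyte markers passed in DESeq2 or in edgeR with all 6 libraries and TMM, where none had an unadjusted p under 0.05 (median -0.15). With total counts 1 passed, as did 1 without Ctrl-labeled replicate 3 and 1 without cKO-labeled replicate 3, the last higher in the cKO-labeled libraries. The adipocyte sum was 489 to 636 against 480 to 535 CPM. Without Pnpla2 and Fabp4, which fibers and endothelium also express, it was 52.4 CPM in Ctrl-labeled replicate 2, 56.6 CPM in cKO-labeled replicate 3 and 94.9 to 107 CPM in the others. Angptl4 was also lowest of its group in those libraries. So was Gdf15, but its 5 counts in cKO-labeled replicate 3 equaled those in cKO-labeled replicate 1, where the reduced adipocyte sum was 98.7 CPM. Among 10 smooth muscle and pericyte markers, 4 passed higher in the Ctrl-labeled and 1 in the cKO-labeled libraries, with Cnn1 called at -1.33 (median -0.27). Their sum was 5855 to 6400 against 4683 to 6940 CPM, and 757 to 814 against 743 to 808 CPM without Des, the desmin of muscle fibers. Both sums overlapped. Without Des and Abcc9 it was 489 to 503 against 394 to 415 CPM, but Abcc9 is the marker that passed in the other direction. Leaving it out therefore widens the gap, and the groups were apart only in that sum. With total counts 7 and 0 passed, without Ctrl-labeled replicate 1 or 2, 1 of these passed, and without cKO-labeled replicate 1 or 3, 2 passed. Satellite cell markers passed once in each direction among 9 (median 0.42). Their sum was 207 to 234 against 202 to 233 CPM, which overlapped, and without Itga7, an integrin of muscle fibers, 49.8 to 60.1 against 73.7 to 95.3 CPM. Without Itga7 and Myod1 the gap was smaller, at 33.4 to 36 against 40.5 to 49.6 CPM. Of 10 Schwann cell markers, 2 passed, both higher in the Ctrl-labeled libraries, with Egr2 called at -1.41 (median -0.59, 163 to 235 against 93.2 to 150 CPM), while with total counts 7 passed and 2 were called. No marker on these lists was at 0, and their part in the members' values was not tested.

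The genes whose pattern over the 6 libraries was most like that of a member were found by the root mean square difference of centered log2 CPM, as a description. They were chosen from these same libraries, so high or low libraries and calls shared with the member follow from the choice. The nearest to Metrnl was Fhl1, a LIM-domain protein of the muscle fiber, at a difference of 0.105. Fhl1 had 6159, 5512 and 4850 CPM in the Ctrl-labeled libraries and 1355, 2036 and 1461 CPM in the cKO-labeled libraries, with cKO-labeled replicate 2 the highest of its group as for Metrnl (log2 fold change -1.77 ± 0.19 SE, adjusted p = 0.00261). Osbp2 followed at 0.116. For Bdnf the nearest were Lgals4 at 0.188 and Pdlim1 at 0.206, and both passed (log2 fold changes -1.65 and -1.57, adjusted p = 0.0126 and 0.0149).

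Vegfa had the closest neighbors, Ppp4r1 at 0.0157 and Scaf11 at 0.0216, but its own profile also varied least (root mean square 0.116). Ostn was followed by Uts2b at 0.107 and Tmem45b at 0.219, and Fndc5 by Dgat2 at 0.119 and Spock2 at 0.145. Dgat2, which makes triglycerides, had 36.9 CPM in Ctrl-labeled replicate 3 against 89.7 and 89.8 in the other Ctrl-labeled libraries, the lowest of its 6 values, as for Fndc5. Apln was nearest to Dio2 at 0.137 and Cd83 at 0.138, and Sparc to Phf11d at 0.0755 and Prrx1 at 0.0924, the latter a gene of connective tissue progenitors. Gdf15 was nearest to Irs2 at 0.248 and Retn at 0.278, and Angptl4 to Rnd1 at 0.231 and Cfd at 0.241. Retn and Cfd are adipocyte genes. Like Gdf15 and Angptl4, they were lowest among the Ctrl-labeled libraries in replicate 2, which follows from how they were chosen. Among the cKO-labeled libraries, Retn was lowest in replicate 1, at 1.38 CPM, and Cfd in replicate 3, at 14.5 CPM.

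Myh7, the slow myosin heavy chain, was set beside the members as a measure of slow fibers in each library. It had 3676, 1723 and 2219 CPM in the Ctrl-labeled libraries and 494, 974 and 75.3 CPM in the cKO-labeled libraries (log2 fold change -2.30 ± 0.79 SE, adjusted p = 0.0742). Ctrl-labeled replicate 1 and cKO-labeled replicate 2 were the highest of their groups for Myh7, for the called members Metrnl and Bdnf, and also for Fndc5, Angptl4 and Sparc, which were not called. Gdf15, Ostn, Apln and Vegfa were instead highest among the Ctrl-labeled libraries in replicate 3. The lowest Ctrl-labeled library was replicate 2 for Myh7 but replicate 3 for Metrnl and Fndc5. Myh7 shares 1149 exonic bases with antisense genes. Whether the share of slow fibers accounts for any of these differences was not tested.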

How the data were processed

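RNA was extracted from GP muscle, and a sequencing company made mRNA libraries and sequenced them paired-end. Per the labels and methods, reads were checked with FastQC 0.11.8, trimmed with Trimmomatic 0.39, aligned to mm10 with HISAT2 2.1.0 and counted per gene with featureCounts 1.6.2. The deposited values are whole-number counts per gene without normalization, in 1 table per mouse. The annotation and strand setting of the counting are not given in the sources used here.

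Counts were fitted in R 4.3.3 with edgeR 4.0.16 (TMM, filterByExpr, glmQLFit, glmQLFTest), 3 libraries a group, and Benjamini-Hochberg adjustment over the 14180 genes tested. DESeq2 1.42.0 was an alternative. Log2 CPM used a prior count of 2. Gene lengths are the union of GENCODE M21 exons on GRCm38, and 95.8% of symbols matched. Steps were tested on simulated data.

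Named genes are the members, Ppapdc3, Myh7, receptors, the called genes of each list (at most 4 in each direction, by p) and the 2 genes of mean CPM of at least 1 nearest to each member tested. Genes of the stress response list that were not called, Atf4, Fgf1, Cxcl10, Timp1, Gsn, Des, Abcc9, Pnpla2, Fabp4, Itga7 and Myod1 fall outside this rule and were named after their values were seen. The members and lists were chosen with earlier results of these data known. Same-numbered mice did not deviate together (correlations -0.215 to 0.0835), so the numbers were not used to pair them.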

Additional observations from a re-analysis of the deposited data

How the results depend on the processing

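The 9 members tested were refitted with the replicate block, robustly, with the Wald test of DESeq2, after scaling to total counts or by DESeq2, unfiltered or kept only at 10 or more counts per library, and with 1 library left out at a time. Gdf15, with as few as 3 counts, was not in the fit kept at 10 or more counts. Metrnl kept its direction and its call in all of these fits. Without 1 library, log2 fold changes were -2.16 to -1.22 for Bdnf (call lost in 3 of 6), -0.80 to -0.24 for Fndc5, -0.53 to 0.02 for Apln, -0.32 to 0.43 for Ostn and -0.35 to 0.13 for Sparc, and the hypoxia list median was 0.01 without Ctrl-labeled replicate 2. The members called higher in the Ctrl-labeled libraries then numbered 1 to 2, or 1 to 3 at any fold, where Fndc5 passed without Ctrl-labeled replicate 3. All genes called higher in the cKO-labeled libraries then numbered 172 (without Ctrl-labeled replicate 1) to 387. Scaled to total counts, Vegfa was at -0.04, and 1023 genes were called higher in the Ctrl-labeled and 157 in the cKO-labeled libraries. With DESeq2's Wald test Vegfa passed (0.23, adjusted p = 0.0293), the 1 member that did so higher in the cKO-labeled libraries. With the replicate block, Bdnf was at -1.72 (adjusted p = 0.0533), 1 member was called, and 1899 genes had an adjusted p under 0.05 against 3454 without it. The numbers do not pair the mice, and not every sample correlated best with its own number. Why these values moved was not tested. Depth limits Fgf21, at 0 to 1 counts per library. Gdf15 had 3 to 21, and whether depth or the spread between mice limits it was not tested.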
